A study of Mus musculus with 8 samples.

Results

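The 9 genes described here act directly on retinoic acid. They encode 3 retinaldehyde dehydrogenases that make it (Aldh1a1, Aldh1a2 and Aldh1a3), 2 cytochrome P450 enzymes that break it down (Cyp26a1 and Cyp26b1), 2 nuclear receptors that sense it (Rara and Rarg) and 2 proteins that bind it in the cytoplasm (Crabp1 and Crabp2). The genes were chosen by name, and each array probe annotated with one of these names, controls apart, was taken. This gave 11 of 41174 probes, for 9 of 27670 gene symbols. The study compared testes of mice short of the kinase VRK1 with testes of wild type mice, both at postnatal day 8, to ask what the shortage does to early germ cells. VRK1-deficient mice carried a gene trap with a β-geo reporter in intron 3 of Vrk1, derived from 1 embryonic stem cell line and crossed back to C57BL/6. The trap still lets some full-length VRK1 be made, so the model is a partial loss. Total RNA of the testis was labeled with Cy3 and hybridized to 1-color Agilent arrays, with 1 array for each of 4 biological replicates per genotype.

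Retinoic acid is made inside the testis from retinol through retinaldehyde. In mouse testis, Aldh1a1 is known from Sertoli cells and Aldh1a2 from germ cells, while Cyp26b1 in the peritubular cells is thought to limit how much retinoic acid reaches the germ cells. Retinoic acid bound to its receptors switches on Stra8 and other genes as spermatogonia commit to differentiation and meiosis, which in this first wave takes place around the age sampled.

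All values are log2 signals with the log2 of the array's 75th percentile subtracted, so that 0 is a probe as bright as that percentile. They rank arrays for 1 probe and not different probes. Log2 changes are VRK1-deficient minus wild type means. A probe was tested where 4 or more of the 8 arrays had it well above background, and a gene was called where its brightest such probe had a limma adjusted p under 0.05. As a check of the labels, Vrk1 itself (NM_011705, probe A_51_P102339, chr12:103556489-103557469 on mouse build mm7) had log2 signals of -0.20, -0.11, 0.59 and 0.35 on wild type replicates 1 to 4, and of -3.97, -3.68, -3.58 and -4.17 on VRK1-deficient replicates 1 to 4. Each VRK1-deficient array lay far below each wild type array, with a log2 change of -4.00 ± 0.21 (SE, limma adjusted p = 0.000135). Whether this probe lies before or after the trap was not determined. Markers of germ cells, Sertoli cells, Leydig cells and peritubular myoid cells were all measured, with 6 of 6, 10 of 10, 5 of 5 and 5 of 5 genes tested.

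One array stood apart. Wild type replicate 1 carried the Vrk1 signal of a wild type array, but across probes it correlated more with the VRK1-deficient arrays (r from 0.987 to 0.990) than with the other wild type arrays (0.970 to 0.986). Results are therefore given with and without it. It was picked for its likeness to the VRK1-deficient arrays, so leaving it out favors a larger difference between the groups, and the values without it show how far a result depends on this array and are no separate test. Limma called 986 probes with 8 arrays, 7659 without this array and 3 to 68 with any other array left out. The arrays lay on 2 slides scanned at 2 times, with replicates 1 and 2 of both genotypes on slide 1 and replicates 3 and 4 on slide 2. Positions 1 and 2 of both slides held wild type RNA and positions 3 and 4 VRK1-deficient RNA, so position and genotype cannot be told apart.

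Of the 9 genes, 8 had a tested probe, and the brightest probe of each was well above background on all 8 arrays. In VRK1-deficient testes, signals of Aldh1a1 and Aldh1a3 were higher and those of Cyp26a1, Rarg and Crabp1 lower at a limma unadjusted p under 0.05, while the log2 changes of Aldh1a2 and Cyp26b1 were 0.04 and -0.03. No gene passed the adjusted threshold: limma called 0 of 8, against 4.09% of the 17950 genes and 3.66% of the 26962 probes tested. At an unadjusted p under 0.05 there were 3 lower genes (14.7% of all genes tested were lower at that level) and 2 higher genes (14.9%). The methods' t-test also called 0 of 8 after Benjamini-Hochberg adjustment (0.708% of all genes) and gave 3 lower and 2 higher genes at an unadjusted p under 0.05 (13.4% and 14.5%). The groups did not overlap for 2 lower genes (7.62% of all genes) and 1 higher gene (10.0%). Without wild type replicate 1, limma called 3 genes lower (14.7% of all genes) and 3 higher (14.3%), adding Rara. Leaving out any 1 of the other 7 arrays gave no call among the 8 genes. The median log2 change of the 8 genes was 0.0044, against 0.04 over all genes tested. In RNA of whole testis, fewer cells of a type and less RNA per cell cannot be told apart.

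**Figure D1:**
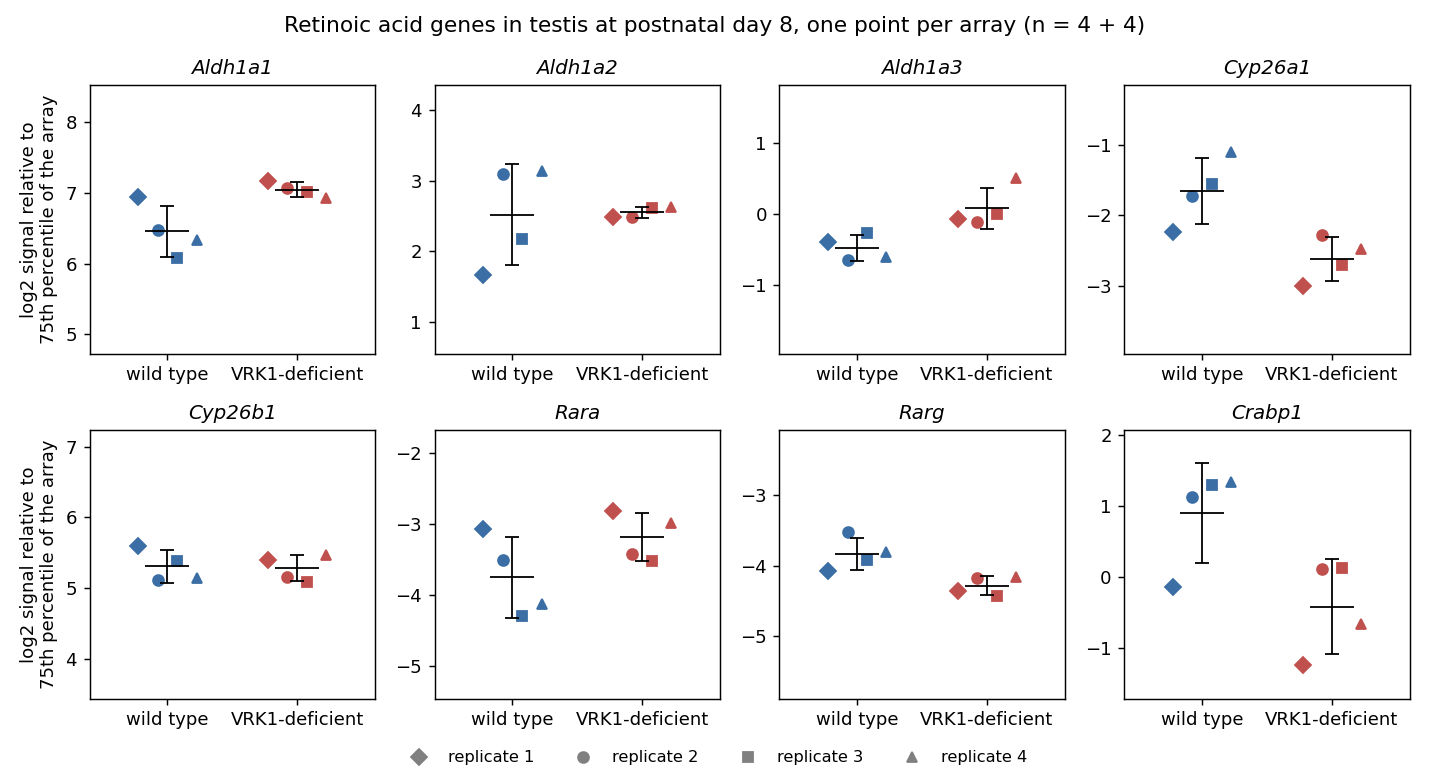
Log2 signal after subtraction of the array's 75th percentile (y axis, the same span of log2 units in each panel) for the 8 retinoic acid genes with a tested probe, in wild type (blue) and VRK1-deficient (red) testes at postnatal day 8. Each symbol is 1 array, with its shape giving the replicate number, and black bars are the mean and SD of 4 arrays. The groups are apart for Aldh1a3, Cyp26a1 and Rarg, and the wild type diamond (replicate 1) lies at the edge of its group next to the VRK1-deficient arrays for Aldh1a1, Cyp26a1, Rara, Rarg and Crabp1.

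Aldh1a1 makes retinoic acid from retinaldehyde and was measured by 1 probe (A_51_P334942, NM_013467, chr19:20343581-20343640 on mm7). Its log2 signal was 6.94, 6.47, 6.08 and 6.33 on wild type replicates 1 to 4 and 7.17, 7.07, 7.01 and 6.92 on VRK1-deficient replicates 1 to 4. The VRK1-deficient arrays were close together and 3 of the 4 were above each wild type array, but VRK1-deficient replicate 4 lay just under wild type replicate 1, so the groups overlapped. The mean was 6.46 in wild type (SD 0.36, n = 4) and 7.04 in VRK1-deficient testes (SD 0.11, n = 4). The log2 change was 0.59 ± 0.18 (SE, limma adjusted p = 0.0786), with 0.42 within slide 1 and 0.76 within slide 2, and the limma adjusted p was 0.0602 with slide as a block. It was 0.75 without wild type replicate 1 (limma adjusted p = 0.00616), and the adjusted p of Aldh1a1 ran from 0.00616 to 0.518 over the alternatives.

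Aldh1a3, the third enzyme of this family, had 2 probes. The probe A_52_P87843 (NM_053080, chr7:62248866-62248925 on mm7) gave -0.39, -0.65, -0.27 and -0.61 in wild type and -0.07, -0.11, 0.00 and 0.51 in VRK1-deficient testes. All 4 VRK1-deficient arrays were above the highest wild type array, replicate 3, and VRK1-deficient replicate 4 was the highest of its group. The log2 change was 0.56 ± 0.17 (SE, limma adjusted p = 0.0753), with 0.43 within slide 1 and 0.69 within slide 2, and the limma adjusted p was 0.0681 with slide as a block. It was 0.59 without wild type replicate 1 (limma adjusted p = 0.0410, with a range of 0.0410 to 0.500 over the alternatives). The other probe, A_52_P113518 (BC026667, chr7:62266988-62267047 on mm7), was well above background on 1 of 8 arrays and was not tested.

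Aldh1a2 (A_52_P58145, NM_009022, chr9:71330506-71330565 on mm7) had nearly equal group means but a wide spread among the wild type arrays. Its log2 signal was 1.67, 3.09, 2.18 and 3.14 in wild type and 2.49, 2.48, 2.61 and 2.63 in VRK1-deficient testes. The wild type arrays spread on both sides of the VRK1-deficient arrays, with replicates 2 and 4 above all of them and replicates 1 and 3 below, and the SD was 0.71 in wild type and 0.08 in VRK1-deficient testes. Wild type replicates 2 and 4 shared array position 2, and replicates 1 and 3 position 1, so in this group the spread and the position cannot be told apart. The log2 change was 0.04 ± 0.30 (SE, limma adjusted p = 0.948). It was -0.24 without wild type replicate 1 (limma adjusted p = 0.437, with a range of 0.437 to 0.989 over the alternatives) and -0.08 without wild type replicate 3, so its sign depended on single arrays.

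Both enzymes that break retinoic acid down were measured. Cyp26a1 (A_52_P382149, NM_007811, chr19:37401759-37401818 on mm7), itself a gene that retinoic acid induces in many cells, had log2 signals of -2.24, -1.73, -1.55 and -1.11 in wild type and -3.00, -2.28, -2.70 and -2.48 in VRK1-deficient testes. All 4 VRK1-deficient arrays were below all 4 wild type arrays, with a narrow gap between wild type replicate 1 and VRK1-deficient replicate 2. The mean was -1.66 in wild type (SD 0.47, n = 4) and -2.61 in VRK1-deficient testes (SD 0.31, n = 4), and the VRK1-deficient signal was 51.6% of the wild type signal. The log2 change was -0.95 ± 0.24 (SE, limma adjusted p = 0.0594), with -0.65 within slide 1 and -1.25 within slide 2, and the limma adjusted p was 0.0548 with slide as a block. Without wild type replicate 1 the change was -1.15 (limma adjusted p = 0.00731, with a range of 0.00731 to 0.515 over the alternatives). With another background correction, normexp, the change was smaller, at -0.61 (limma adjusted p = 0.0746). Within slide 2 alone, which holds 2 arrays of each genotype, the limma adjusted p was 0.0461, and within slide 1 it was 0.515. For Cyp26b1 (A_51_P501844, NM_175475, chr6:84601274-84601333 on mm7), the log2 signals were 5.60, 5.11, 5.39 and 5.14 in wild type and 5.40, 5.16, 5.09 and 5.47 in VRK1-deficient testes. The arrays of both genotypes were interleaved, with SDs of 0.23 and 0.18. The log2 change of Cyp26b1 was -0.03 ± 0.15 (SE, limma adjusted p = 0.916).

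Rarg encodes the retinoic acid receptor known from spermatogonia, and Rara the one known from Sertoli cells as well as germ cells. Both of the Rarg probes were tested. The brighter one (A_51_P372853, NM_011244, chr15:102222035-102222094 on mm7) gave log2 signals of -4.07, -3.53, -3.92 and -3.81 in wild type and -4.36, -4.18, -4.43 and -4.16 in VRK1-deficient testes. All 4 VRK1-deficient arrays were below the lowest wild type array, replicate 1. The log2 change of this probe was -0.45 ± 0.14 (SE, limma adjusted p = 0.0843), with -0.47 within slide 1 and -0.43 within slide 2, and the limma adjusted p was 0.0910 with slide as a block. It was -0.53 without wild type replicate 1 (limma adjusted p = 0.0226, with a range of 0.0226 to 0.831 over the alternatives). The second Rarg probe (A_51_P372858, chr15:102222347-102224987 on mm7) stretches over 2641 bases of the genome for its length of 60 and so crosses an intron. Its log2 signals were -5.04, -4.19, -4.13 and -4.19 in wild type and -5.53, -5.14, -5.11 and -5.22 in VRK1-deficient testes, where 3 of 4 arrays were well above background. Here too the groups did not overlap, and wild type replicate 1 was the wild type array nearest to the VRK1-deficient arrays. The log2 change was -0.86 ± 0.21 (SE, limma adjusted p = 0.0566), and -1.08 without wild type replicate 1 (limma adjusted p = 0.00344, with a range of 0.00344 to 0.996 over the alternatives). Both probes are dim, and their change depended on the background correction. With normexp it was -0.04 for the brighter probe (limma adjusted p = 0.831) and 0.0011 for the second (limma adjusted p = 0.996), against a median of 0.12 over all probes under that correction.

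Rara (A_51_P389724, NM_009024, chr11:99079584-99079643 on mm7) had log2 signals of -3.07, -3.51, -4.30 and -4.13 in wild type and -2.81, -3.42, -3.52 and -2.99 in VRK1-deficient testes. VRK1-deficient replicates 1 and 4 were above each wild type array and the other two lay among them, so the groups overlapped. Within slide 1 the log2 change of Rara was 0.17 and within slide 2 it was 0.96. Over all arrays it was 0.57 ± 0.28 (SE, limma adjusted p = 0.214), and the limma adjusted p was 0.146 with slide as a block. The change was 0.80 without wild type replicate 1 (limma adjusted p = 0.0394, with a range of 0.0394 to 0.803 over the alternatives).

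Crabp1, a cytoplasmic retinoic acid binding protein known from spermatogonia, had the largest log2 change of the 8 genes. Its probe (A_52_P185907, NM_013496, chr9:54797711-54797770 on mm7) gave -0.14, 1.13, 1.30 and 1.34 in wild type and -1.25, 0.12, 0.13 and -0.67 in VRK1-deficient testes. Wild type replicates 2 to 4 were close together and above each VRK1-deficient array, while wild type replicate 1 lay below VRK1-deficient replicates 2 and 3. The mean was 0.91 in wild type (SD 0.71, n = 4) and -0.42 in VRK1-deficient testes (SD 0.67, n = 4), and the VRK1-deficient signal was 39.9% of the wild type signal. The log2 change was -1.33 ± 0.40 (SE, limma adjusted p = 0.0796), with -1.06 within slide 1 and -1.59 within slide 2, and the limma adjusted p was 0.0710 with slide as a block, 0.553 within slide 1 alone and 0.0462 within slide 2 alone. It was -1.68 without wild type replicate 1 (limma adjusted p = 0.00898, with a range of 0.00898 to 0.553 over the alternatives). Crabp2 (A_51_P521283, NM_007759, chr3:88062561-88062620 on mm7) was not well above background on any of the 8 arrays, so no fold is given.

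For 6 of the genes the log2 change was set against the median over all probes under 4 scalings. That median was 0.04 after scaling to the 75th percentile, 0.04 with quantile normalization, 0.12 with normexp and -0.14 with the deposited signals as they are, without scaling. Relative to it, Aldh1a1 changed by 0.55, 0.40, 0.48 and 0.55 under these 4 settings, Aldh1a3 by 0.52, 0.54, 0.43 and 0.52, and Rara by 0.53, 0.55, 0.34 and 0.53. Cyp26a1 changed by -0.995, -0.96, -0.73 and -0.995, Crabp1 by -1.37, -1.37, -1.33 and -1.37, and Rarg by -0.49, -0.46, -0.16 and -0.49. Scaling moves each probe and the median alike, so the first and last of these values agree by construction, and only normexp and quantile normalization could place a gene on the other side of the median. With both, the 6 genes kept their side. None of them was called with quantile normalization (limma adjusted p from 0.0643 to 0.170). The limma adjusted p passed 0.05 for Crabp1 with normexp (0.0412) and for Cyp26a1 and Crabp1 with the unscaled signals (0.0445 and 0.0469).

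Of the probes with lower signal in VRK1-deficient testes, 3 are printed, 5′ to 3′ as the array files give them, since they are the stretch of transcript that each value reads. All 3 hold 60 bases.
Cyp26a1 (A_52_P382149): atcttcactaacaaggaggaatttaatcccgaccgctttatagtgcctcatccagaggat
Rarg (A_51_P372858): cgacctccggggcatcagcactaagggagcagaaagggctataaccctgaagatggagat
Crabp1 (A_52_P185907): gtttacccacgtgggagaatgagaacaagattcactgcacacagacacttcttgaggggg

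Retinoic acid receptors bind DNA as a pair with a retinoid X receptor, at a direct repeat of a short half-site. The 300 bases around the start of each gene (250 before and 50 after) in RefSeq, build GRCm38.p6, were searched on both strands for 2 half-sites in the same orientation, with 1, 2 or 5 bases between. A half-site was taken as AGGTCA, its variant AGTTCA, or the form of either that starts with G, which is GGGTCA for the former and GGTTCA for the latter. Of 32851 such windows, 0.222% held a repeat with 1 base between, 0.268% with 2 and 0.0974% with 5. RefSeq windows were found for 7 of the 9 genes (12 windows), not for Aldh1a3 and Crabp2, and 1 of the 7 genes held a repeat. That gene was Cyp26a1, with a spacing of 5 on the strand opposite to the gene, from base 32 to base 16 before its start. Of the 53 other genes of the pathway 39 had RefSeq windows, and 2 of them held a repeat, Bco1 with a spacing of 1 (not well above background on any array) and the receptor gene Rarb. That of Rarb had the same spacing as in Cyp26a1 and lay on its own strand, from base 53 to base 37 before its start. The 250 bases before the start of Cyp26a1 and Rarb are printed on the strand of the gene, with the repeat in capitals (for Cyp26a1 as its reverse complement). The window of Cyp26a1 is chr19:37697558-37697807 on the plus strand, and that of Rarb is chr14:16575477-16575726 on the minus strand, both on GRCm38.p6.
Cyp26a1: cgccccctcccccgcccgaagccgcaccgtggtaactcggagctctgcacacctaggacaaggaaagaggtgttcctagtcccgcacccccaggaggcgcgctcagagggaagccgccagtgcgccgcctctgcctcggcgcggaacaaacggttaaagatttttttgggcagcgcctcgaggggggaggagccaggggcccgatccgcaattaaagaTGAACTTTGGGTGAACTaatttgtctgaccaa
Rarb: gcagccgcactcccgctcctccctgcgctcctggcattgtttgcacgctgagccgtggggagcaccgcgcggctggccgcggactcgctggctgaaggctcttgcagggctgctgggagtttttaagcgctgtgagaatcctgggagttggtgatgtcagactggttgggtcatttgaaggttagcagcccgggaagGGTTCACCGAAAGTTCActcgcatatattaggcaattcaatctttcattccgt
A match describes these letters and does not show that a receptor binds there. The log2 signal of Rarb was -3.65, -3.54, -3.01 and -3.03 in wild type and -4.01, -3.55, -4.01 and -4.24 in VRK1-deficient testes, so that 3 of the 4 VRK1-deficient arrays were below each wild type array. The log2 change of Rarb was -0.65 ± 0.20 (SE, limma adjusted p = 0.0829), with -0.19 within slide 1 and -1.10 within slide 2, and -0.76 without wild type replicate 1 (limma adjusted p = 0.0236, with a range of 0.0236 to 0.711 over the alternatives). With normexp it was -0.11 (limma adjusted p = 0.610). Among all genes tested that held a repeat, 17 had a log2 change below 0 and 16 above at a spacing of 1, and 5 and 6 at a spacing of 2. At a spacing of 5 there were 5 below and 1 above, with Cyp26a1 and Rarb among the 5, and limma called 0 of these 6. Of all genes tested, 8087 were below 0 and 9863 above. The repeats were chosen after the expression values were seen, so these counts are no test, and no spacing was compared with another.

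The genes around retinoic acid were taken as 5 lists with 53 genes in all (4 of them in more than 1 list), of which 51 had a probe and 43 a tested probe. Limma called 1 of the 43, higher (1.88% of all genes tested were called higher), and 0 lower (2.21%). At an unadjusted p under 0.05 limma gave 12 lower and 8 higher genes (14.7% and 14.9% of all genes), and the methods' t-test, which called 0 after adjustment, gave 10 and 5 (13.4% and 14.5%). Limma called 12 lower and 9 higher without wild type replicate 1 (14.7% and 14.3% of all genes). The called gene was Rarres2, which encodes the secreted protein chemerin and is induced by retinoids. Rarres2 had log2 signals of 2.75, 2.57, 2.97 and 2.66 in wild type and 3.32, 3.31, 3.33 and 3.22 in VRK1-deficient testes, with no overlap. Its log2 change was 0.56 ± 0.12 (SE, limma adjusted p = 0.0473), and the limma adjusted p was 0.0506 with slide as a block and 0.0133 without wild type replicate 1. Leaving out another array gave a limma adjusted p from 0.0518 to 0.149, and over the alternatives it ran from 0.0133 to 0.500. A second Rarres2 probe had a limma adjusted p of 0.0446.

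**Figure D2:**
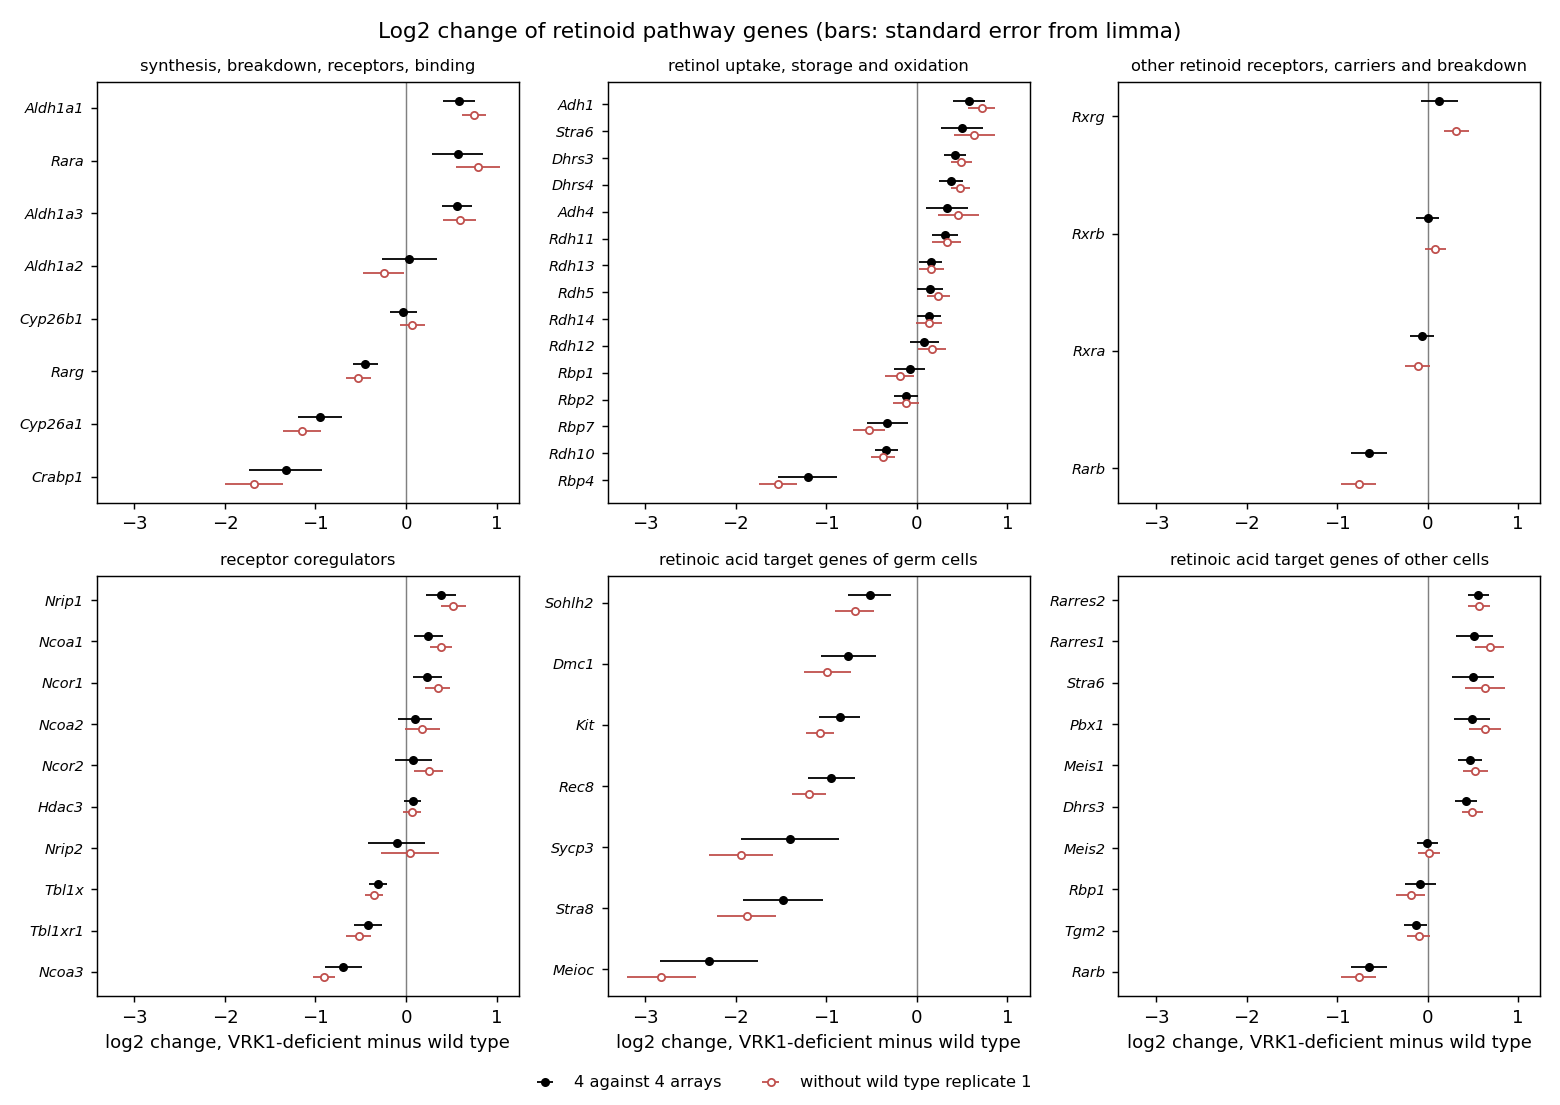
Log2 change, VRK1-deficient minus wild type (x axis), of each tested retinoic acid gene and of the tested genes, all but 1, of 5 lists around them, with 4 against 4 arrays (black) and without wild type replicate 1 (red, open). Bars are standard errors from limma. All 7 tested targets in germ cells lie below 0, from -0.52 to -2.30 with 8 arrays.

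Upstream of the dehydrogenases, 15 of 20 genes of retinol uptake, storage and oxidation were tested, with a median log2 change of 0.15 against 0.04 over all genes tested (-0.03 against -0.14 with unscaled signals). By their brightest probe none was called by limma, 2 were lower and 3 higher at an unadjusted p under 0.05 (14.7% and 14.9% of all genes), and the same counts came from the methods' t-test. Adh1, an alcohol dehydrogenase that can oxidize retinol, had a log2 change of 0.58 (limma adjusted p = 0.0838), while a second, less bright Adh1 probe (A_51_P428555) had one of 0.74 (0.0446) with no overlap. Stra6, the retinol transporter, had a log2 change of 0.50 (0.185). At the other end were Rbp4, the retinol carrier of blood, at -1.21 (0.0626) and Rdh10, which makes retinaldehyde, at -0.34 (0.127). Without wild type replicate 1 limma called 1 of these 15 genes lower and 3 higher (14.7% and 14.3% of all genes), with Rbp4 at -1.53 and Adh1 at 0.72 among those called. Lrat, Bco1, Rdh1, Dhrs9 and Adh7 were not well above background on any array.

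Rarg and Rara act with retinoid X receptors and coregulators. Of the list of other receptors, carriers and breakdown enzymes 4 of 6 genes were tested and 0 were called by limma (1 lower and 0 higher at an unadjusted p under 0.05, as with the methods' t-test, against 14.7% and 14.9% of all genes). Besides Rarb, these were Rxra at -0.07, Rxrb at 0.0017 and Rxrg at 0.13, with limma adjusted p of 0.769, 0.994 and 0.699. Cyp26c1 had no probe under that name, and Fabp5 was not well above background. All 10 receptor coregulators were tested, and limma called 0, with 3 lower and 1 higher at an unadjusted p under 0.05 (14.7% and 14.9% of all genes; 3 and 0 with the methods' t-test) and a median log2 change of 0.08 (-0.10 with unscaled signals). The coactivator Ncoa3 had a log2 change of -0.69 (limma adjusted p = 0.0775), Tbl1xr1 one of -0.42 (0.117), Ncoa1 one of 0.25 (0.336) and the corepressor Nrip1 one of 0.39 (0.167). Without wild type replicate 1, 3 coregulators were called lower and 2 higher (14.7% and 14.3% of all genes), and Rarb was called lower.

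Targets of retinoic acid were taken as 1 list for germ cells and 1 for other cells, and the 2 lists were not compared by a test. Of 8 targets in germ cells 7 were tested, and all 7 had log2 changes below 0, also with quantile normalization, normexp or unscaled signals, with a median of -0.94 (0.04 over all genes tested). Limma called 0 of them, with 6 lower and 0 higher at an unadjusted p under 0.05 (14.7% and 14.9% of all genes; 4 and 0 with the methods' t-test). All 7 were called lower by limma without wild type replicate 1, where 14.7% of all genes were called lower. Meioc, which is needed for meiotic prophase to proceed, had a log2 change of -2.30 (limma adjusted p = 0.0526), where the lowest wild type array (replicate 1, -1.94) and the highest VRK1-deficient array (replicate 2, -1.95) nearly met, and Stra8 one of -1.48 (0.0760). The smallest changes in this list were those of Dmc1, the meiotic recombinase, at -0.76 (0.140) and of Sohlh2 at -0.52 (0.183). For comparison, the median was -1.01 for 6 pan germ cell markers and 0.36 for 6 tested markers of undifferentiated spermatogonia. Whether these targets changed beyond other germ cell genes was not tested. Of 13 targets in other cells 11 were tested, with 5 log2 changes below 0 and 6 above, a median of 0.42, and 1 lower and 5 higher at an unadjusted p under 0.05 (14.7% and 14.9% of all genes; 1 and 3 with the methods' t-test). Beside Rarb and Rarres2, this list held Rarres1, a gene induced by retinoids, at 0.52 (limma adjusted p = 0.137). Without wild type replicate 1 limma called 1 of these 11 lower and 5 higher (14.7% and 14.3% of all genes).

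Markers of the cell types of the testis were read from the same arrays. Sums of a list are in multiples of the 75th percentile, and the gene named with a sum gave its largest term, which depends on the brightness of the probe and does not rank genes by abundance. Of all 17950 genes tested, limma called 396 lower and 338 higher (2.21% and 1.88%), 240 lower and 240 higher with slide as a block, 270 and 317 with quantile normalization and 2634 and 2561 without wild type replicate 1 (14.7% and 14.3%), and 2646 and 2667 were lower and higher at an unadjusted p under 0.05 (14.7% and 14.9%). The 6 pan germ cell markers all had log2 changes below 0, with a median of -1.01 (and below 0 under each of the 3 other scalings). Limma called 1 of them lower, 0 with slide as a block and 6 without wild type replicate 1. Their summed signal (largest term Tdrd1) was 21.0, 38.5, 53.4 and 43.3 in wild type and 14.8, 23.02, 22.0 and 17.1 in VRK1-deficient testes. Wild type replicate 1 was thus the lowest wild type array and lay within the VRK1-deficient range. The same sum for the 4 tested markers of differentiating spermatogonia (largest term Stra8) was 21.5, 48.6, 69.6 and 66.7 against 11.3, 25.9, 24.2 and 15.3, with 1 called lower, 0 with slide as a block and 4 without wild type replicate 1. This list shares Stra8, Kit and Sohlh2 with the targets in germ cells, and the spermatocyte list shares Sycp3, so they are not independent of those targets. For the 6 spermatocyte markers (largest term Smc1b) it was 5.997, 12.8, 18.9 and 17.4 against 4.07, 6.84, 6.69 and 5.09, with 1 called lower, 1 with slide as a block and 5 without wild type replicate 1. In both of these lists, too, wild type replicate 1 fell among the VRK1-deficient arrays. The 6 tested markers of undifferentiated spermatogonia (largest term Id4) went both ways, 2 below 0 and 4 above with a median log2 change of 0.36. Limma called 2 lower and 0 higher (2 and 3 at an unadjusted p under 0.05, and 2 and 3 called without wild type replicate 1), but 0 with slide as a block or with quantile normalization, and the sums were 2.63, 4.18, 4.34 and 3.31 against 2.69, 3.08, 2.78 and 2.64.

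For the 10 Sertoli cell markers (largest term Clu), 8 had log2 changes above 0, also under the 3 other scalings, and limma called 0, with 2 lower and 4 higher at an unadjusted p under 0.05 (1 and 2 with the methods' t-test). It called 0 with slide as a block, and 1 lower and 6 higher without wild type replicate 1. Their sums were 347, 257, 249 and 237 in wild type and 368, 311, 312 and 357 in VRK1-deficient testes, so that wild type replicate 1 again lay within the VRK1-deficient range. The 5 peritubular myoid markers (largest term Acta2) summed to 146, 138, 149 and 153 against 132, 144, 155 and 121, with 1 called lower, also with slide as a block and without wild type replicate 1, and the sums of both genotypes were interleaved. The 5 Leydig cell markers (largest term Insl3) summed to 24.3, 14.4, 21.9 and 20.8 against 26.5, 28.1, 18.6 and 17.3. The sums of the 3 tested macrophage markers (largest term Csf1r, with Cd163 not well above background on any array) ranged from 2.32 to 3.15 in wild type and from 2.77 to 3.14 in VRK1-deficient testes. Those of the 4 endothelial markers (largest term Cdh5) ranged from 2.34 to 2.93 and from 3.03 to 3.52. Limma called none of the markers of Leydig cells, macrophages and endothelium, and without wild type replicate 1 it called 1, 0 and 1 higher. The part of these cell types in the changes of the retinoic acid genes was not tested.

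Among the 17950 genes, those whose signals ran most nearly in parallel with a retinoic acid gene over the 8 arrays were listed for the 3 genes whose groups did not overlap. For Cyp26a1 they were Samd12 (Pearson r = 0.990), Rhox2a (0.982), a gene with near-identical neighbors, and Celf5 (0.981), with log2 changes of -1.06, -0.72 and -0.84. For Rarg they were Kif24 (0.993), Gdf10 (0.986), a growth factor of the TGF-β family, and Chst5 (0.986), with log2 changes of -0.52, -0.41 and -1.48. For Aldh1a3 they were Thoc7 (0.994), Chm (0.976) and Galk2 (0.974), with log2 changes of 0.43, 0.33 and 0.45. These are the highest of many values over 8 arrays that share a difference between genotypes, and they are given as a description with no p.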

How the data were processed

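The authors extracted 1-color Agilent arrays with Agilent Feature Extraction 9.5.3.1 and deposited its processed signals, which are linear intensity values with background subtracted and no scaling between arrays. The value table that came with them was equal to these signals on each array. Each array had 43379 non-control spots, and 58 to 134 spots per array flagged as outliers were left out. Between 63.6% and 69.5% of spots per array were well above background, and the 75th percentile lay between 548 and 851. The number of arrays limits the precision. Log2 intensities minus the log2 of that percentile were averaged over the spots of a probe. Of 41174 probes, the 26962 that were well above background on 4 or more arrays were tested with limma 3.58.1 (lmFit and eBayes, R 4.3.3), with Benjamini-Hochberg adjustment over all of them, and 986 were called (3.66%). A gene was represented by its brightest tested probe. Symbols were matched to a RefSeq gene table (GRCm38.p6) by accession (22951 probes), symbol (6659) or synonym (3109), and 8455 probes kept the name in the array files. Probe positions are those of the files (mm7), and promoter positions those of RefSeq (GRCm38.p6).

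The 9 genes and the lists were chosen with earlier results of these data known. Named genes are the 9 genes, Vrk1, from each list every called gene and those with the 2 lowest and 2 highest log2 changes, and the 3 genes most correlated with each retinoic acid gene whose groups did not overlap. A gene of the lists that this rule names is not reported here. The repeats searched in promoters were chosen after the expression values were seen. Alternatives were quantile normalization, normexp (offset 50), unscaled signals, no filter or a filter on all 8 arrays, slide as a block, each slide alone, the replicate number as a block, an intensity trend with robust variances, the methods' t-test, a gene's mean over its probes, a ratio of arithmetic means, and each array left out in turn. The limma comparison was tested on simulated data with independent noise in each probe. Those data held no slide effect and no deviation shared by the probes of an array, so the simulation does not cover these. Tables and figures were made with Python 3.11.15, pandas 2.3.3, numpy 2.4.6 and matplotlib 3.10.9.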

Additional observations from a re-analysis of the deposited data

Results flagged for a closer look

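In 54 groups of 4 arrays (each genotype for the retinoic acid genes and the named genes of the lists), 2 held an array flagged as apart from the other 3, where chance gives about 1 in 20. The rule sets the gap to the nearest array against the range of the group, so a small gap can be flagged too. Crabp1 on wild type replicate 1 had a log2 signal of -0.14, while wild type replicates 2 to 4 had 1.13 to 1.34. Rarres2 on VRK1-deficient replicate 4 had a log2 signal of 3.22, against 3.31 to 3.33 on the other VRK1-deficient arrays, a small gap among arrays that lay close together.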

How the results depend on the processing

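Aldh1a1, Aldh1a3, Cyp26a1, Rara, Rarg and Crabp1 kept their direction in each of their 21 alternatives. For Rarg this covers its brightest probe and the mean over its probes. The log2 change of the second Rarg probe alone went from -0.86 to 0.0011 with normexp. The log2 change of Aldh1a2 turned from 0.04 to -0.14 with unscaled signals, -0.032 in slide 2 alone, -0.087 as a ratio of arithmetic means and between -0.24 and 0.24 with 1 array left out (-0.24 with wild type replicate 1 left out, -0.08 with replicate 3). The unscaled value follows the median over all probes, which went from 0.04 to -0.14, and relative to that median Aldh1a2 was at -0.0043 in both settings. That of Cyp26b1 turned from -0.03 to 0.017 in slide 2 alone and lay between -0.094 and 0.068 with 1 array left out (0.068 with wild type replicate 1 left out, 0.010 and 0.035 with VRK1-deficient replicates 2 and 3). Of the retinoic acid genes, 0 called in the fit above, 1 was called with normexp, 1 with the filter on all 8 arrays, 1 with a gene's mean over its probes, 2 with unscaled signals, 2 in slide 2 alone, 2 with an intensity trend and robust variances and 0 to 6 with 1 array left out. Of the genes of the lists, 1 called above, the count was 7 with normexp, 3 with unscaled signals, 0 with no filter, 2 with the filter on all 8 arrays, 0 with slide as a block, 0 in slide 1, 7 in slide 2, 6 with an intensity trend and robust variances, 0 with the methods' t-test, 3 with a gene's mean over its probes and 0 to 21 with 1 array left out. Over all probes, 986 of 26962 were called, 1386 with normexp, 17 with no filter, 1389 of 24378 with the filter on all 8 arrays, 641 with slide as a block, 3 in slide 1 and 1059 in slide 2 (each 2 against 2 arrays), 1916 with an intensity trend and robust variances, 162 with the methods' t-test and 3 to 7659 with 1 array left out, the highest without wild type replicate 1. With a gene's mean over its probes, 1054 of 17950 genes were called. With unscaled signals 852 of 916 calls were lower, against 535 of 986. With the replicate block, 2280 probes, 2 retinoic acid genes (Cyp26a1 and Crabp1) and 8 genes of the lists were called. The deviations of samples with the same number correlated by 0.468, 0.0734, 0.188 and -0.138 for replicates 1 to 4, which does not settle whether they are pairs. The labels do not say what equal numbers share, so the numbers were not taken as pairs. The cause of these differences was not tested. Signal over background limits Rarg, Rara and Rarb, which are dim, and Crabp2, which was not measured above background. The change of Cyp26a1 also depended on the background correction, at -0.95 in the fit above and -0.61 with normexp.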
